A study of Mus musculus with 6 samples.

Results

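The genes described here encode proteins that pack, mark and remodel chromatin: SWI/SNF, ISWI and CHD remodellers, histone deacetylases, Polycomb and HP1 proteins, the DNA methylation machinery, the high mobility group (HMG) proteins and the ANP32 histone chaperones. This group of genes was proposed with earlier results of these data known, and its members were then taken by gene symbol. They are all probe sets (groups of short oligonucleotides designed against a transcript) whose single symbol in the platform annotation begins with Smarc, Hdac, Dnmt, Cbx, Ezh, Hmga, Hmgb, Hmgn, Anp32 or Chd and a digit, or is Eed, Suz12, Rbbp4, Rbbp7 or Uhrf1. This gave 43 of 8252 genes, read by 59 of the 12422 probe sets that are not controls. A further 4 probe sets list a Cbx, Hmgb or Hmgn symbol together with other symbols and were left out. The samples were total RNA of dissected mouse lung tissue at embryonic stage E11.5, and the labels give no strain, genotype or treatment. The branching region was taken from the right and the left lung, and what is called non-branching was the pair of main bronchi with a piece of trachea. There were 3 samples of each region, on an array each. The labels do not say whether these came from separate embryos or litters, so the p-values reflect no more than the spread among these arrays, which may be technical.

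DNA in the nucleus is wound around histones, and access to it is set by enzymes that slide or evict nucleosomes, by deacetylases that remove acetyl groups from histone tails, by Polycomb and HP1 proteins that bind or write repressive histone methylation, and by methylation of cytosines in DNA. HMG proteins bind and bend DNA or nucleosomes and are abundant in embryonic tissue. Some of these genes, among them Dnmt1 and Uhrf1, are known to be transcribed mainly in dividing cells, because each round of DNA replication has to restore methylation and nucleosomes on the new strands.

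The signals are the deposited intensities on a linear scale. Array medians ran from 212.2 to 229.4. Control probe sets for bacterial and yeast RNA had medians of 19.8 to 40.7 on 5 arrays and of 78.8 on the array of non-branching replicate 2. The 3' minus 5' log2 difference of actin, which rises as RNA degrades, was 0.20 to 0.49 on 5 arrays and 0.75 for non-branching replicate 3. A signal of 147 or less was taken as background. In a dissected region, fewer cells of a type and less RNA per cell cannot be told apart.

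Among the chromatin genes Uhrf1 and Anp32e were higher in the branching region, by 1.78-fold and 1.91-fold, and no other member passed the test. Of the 59 probe sets, 53 (40 genes) had enough mean signal to be tested with limma, and 2 of the 53 (3.77%) were higher at an adjusted p under 0.05, while none was lower; 12 of the 53 (22.6%) had an unadjusted p under 0.05. Among all 9316 probe sets tested, 2.03% passed in either direction, 0.902% as higher and 1.13% as lower, and 14.6% had an unadjusted p under 0.05. Differences above 0 were seen for 34 of 53 member probe sets (64.2%) against 49.6% of all probe sets tested. The 53 include several probe sets for each of 11 genes and 4 probe sets with both means at background. The share was not computed per gene. The median log2 difference, branching minus non-branching, was 0.11 over the 49 tested members above background and -0.0046 over all probe sets tested. Without branching replicate 1 the median of the members was 0.19, and without branching replicate 3 it was 0.07. The 3 branching signals lay above the 3 non-branching signals for 9 of 53 members (17.0%, against 9.79% of all probe sets tested) and below them for 5 (9.43%, against 11.0%), together 14 (26.4%, against 20.8%). For 39 of 53 members (73.6%) the 95% interval of the difference excluded a 2-fold change in either direction, as it did for 52.6% of all probe sets tested. For 24 members it excluded a 1.5-fold change, and the share of all probe sets was not computed there. The members were not matched to other probe sets by signal, and dim probe sets had the widest intervals.

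**Figure D1:**
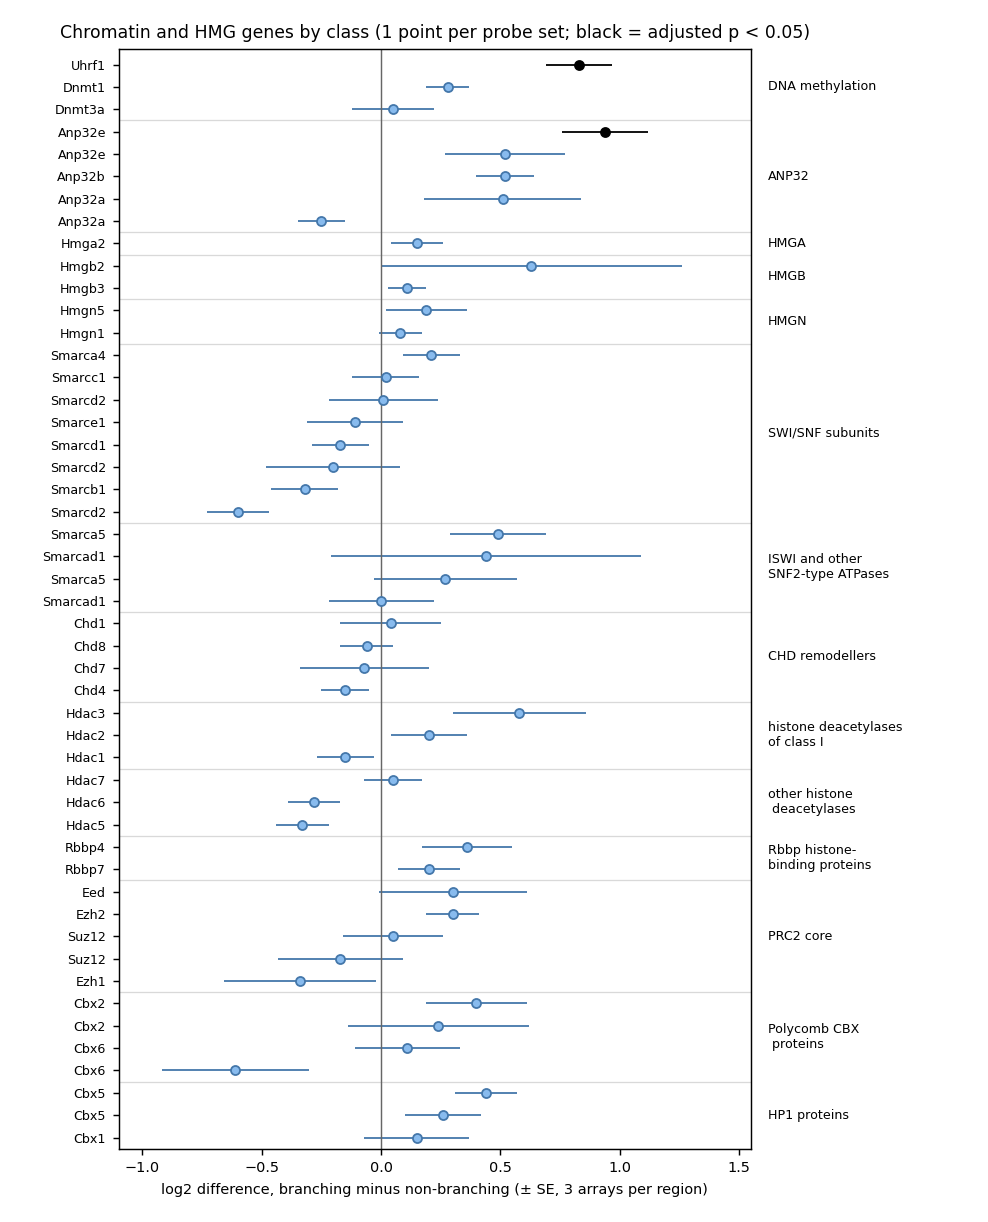
Log2 difference in signal, branching minus non-branching, for the 49 tested chromatin and HMG probe sets with a mean above background in at least 1 region, grouped by class. Points are single probe sets with limma's standard error (3 arrays per region); Uhrf1 at 0.83 and Anp32e at 0.94 (black) are the 2 with an adjusted p under 0.05.

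Among the DNA methylation genes, Uhrf1 rose in branching and the methyltransferase genes did not pass the test. Uhrf1 (Entrez gene 18140) encodes the protein that recognises half-methylated DNA behind the replication fork and brings Dnmt1 to it. Its signals were 3184.2, 3183.1 and 3821.1 on branching replicates 1 to 3 and 1565.5, 2061.7 and 2124.5 on non-branching replicates 1 to 3. Every branching array was above every non-branching array, and the regional means were 3396 ± 368 and 1917 ± 306 (SD, n = 3). The difference was 0.83 ± 0.14 on the log2 scale (SE), a 1.78-fold higher signal, with a limma adjusted p of 0.0187. The call was kept in 3 of the 6 omissions of 1 array. Leaving out branching replicate 3 gave an adjusted p of 0.0868, and leaving out non-branching replicates 2 or 3 gave 0.0519 or 0.0506. It was 0.182 when limma's variance trend was not used, 0.0789 when dim probe sets were kept, and 0.190 when variances were not moderated across probe sets.

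Dnmt1 (Entrez gene 13433), the maintenance methyltransferase that copies methylation to the new strand, gave 4655.1, 4180.2 and 4232.8 in branching and 3463.2, 3771.3 and 3507.2 in non-branching. The groups did not overlap, but the difference of 0.28 ± 0.09 did not pass (limma adjusted p = 0.183), and its 95% interval ran from 0.08 to 0.49. A second Dnmt1 probe set, of a less specific design, read 263.0, 72.8 and 39.1 in branching and 77.8, 134.8 and 126.4 in non-branching; both means were at background, so no fold is given. Dnmt3a, which methylates new sites, averaged 624.8 ± 6.88 on the branching arrays and 608.5 ± 78.0 on the others (SD, n = 3), a log2 difference of 0.05 ± 0.17 with an interval from -0.34 to 0.43. A second Dnmt3a probe set was too dim to be tested, with 6.1 to 58.5 on the 6 arrays.

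The ANP32 proteins are acidic histone chaperones, of which Anp32e is known to take the histone variant H2A.Z out of chromatin. Anp32e rose in branching. Its brighter probe set (Entrez gene 66471) read 2137.9, 2189.0 and 2901.7 on branching replicates 1 to 3 and 1583.1, 1038.6 and 1176.4 on non-branching replicates 1 to 3, so the groups did not overlap. The log2 difference was 0.94 ± 0.18 (SE), 1.91-fold, with a limma adjusted p of 0.0322. This call was kept in 1 of the 6 omissions, that of non-branching replicate 1. The adjusted p was 0.0569, 0.0700 and 0.124 without branching replicates 1, 2 and 3, and 0.115 and 0.139 without non-branching replicates 2 and 3; it was 0.211 without the variance trend, 0.119 when dim probe sets were kept and 0.248 when variances were not moderated. The second Anp32e probe set gave 506.1, 982.0 and 935.3 in branching and 567.5, 551.1 and 508.6 in non-branching. There branching replicate 1 lay below all non-branching arrays, and the difference of 0.52 ± 0.25 did not pass (adjusted p = 0.390).

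Anp32b gave 7029.6, 8372.5 and 7324.5 in branching and 5854.2, 4532.3 and 5517.8 in non-branching. All branching arrays were higher, by 0.52 ± 0.12 on the log2 scale, and the limma adjusted p of 0.0627 fell short of the threshold; it was 0.0436 when the dimmer 50% were dropped and 0.0438 with array weights. Anp32a went both ways. Its brighter probe set gave 2357.5, 2051.5 and 2024.6 in branching and 2459.1, 2629.4 and 2569.0 in non-branching, lower on every branching array by -0.25 ± 0.10 (adjusted p = 0.302). Its dimmer probe set differed by 0.51 ± 0.33 (adjusted p = 0.529), with overlapping signals of 288.8, 357.2 and 413.8 against 370.7, 178.2 and 221.9.

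**Figure D2:**
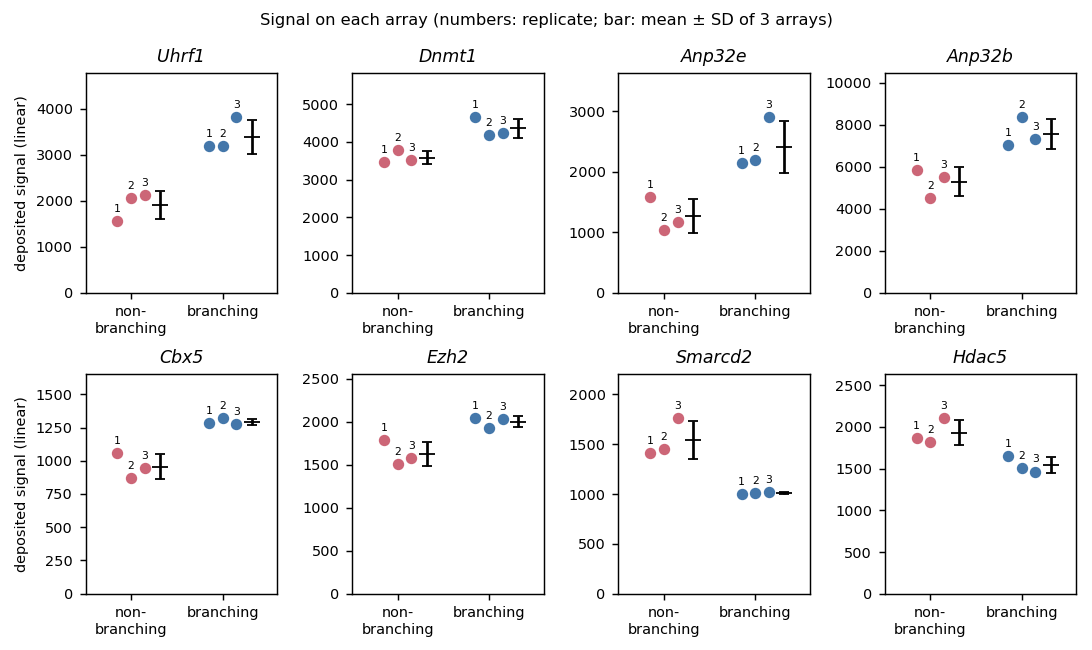
Deposited signal (linear axes from 0) of 8 probe sets on each of the 6 arrays, with the replicate number above each point and the mean ± SD of the 3 arrays of a region beside the points. The 8 were picked from the 14 of 53 tested member probe sets whose regions do not overlap (9 higher and 5 lower in branching). Among all probe sets tested, 20.8% do not overlap. Branching is higher for Uhrf1, Dnmt1, Anp32e, Anp32b, Cbx5 and Ezh2 and lower for Smarcd2 and Hdac5. Not shown are Hmgb3, Smarca4 and Smarca5 (higher) and Anp32a, Smarcd1 and Hdac6 (lower). The Smarcd2 probe set is a less specific one, and the other tested Smarcd2 probe sets overlap. Only Uhrf1 and Anp32e have an adjusted p under 0.05. Signals of different probe sets cannot be compared with each other.

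Promoters are shown for the genes that rose, Uhrf1 and Anp32e, and for Dnmt1 and Ezh2, which were picked after the matches were seen. Of the 7 members that did not pass but were higher on all 3 branching arrays (Dnmt1, Ezh2, Anp32b, Hmgb3, Smarca4, Smarca5 and Cbx5), these 2 had an E2F-type match in the searched window and the other 5 had none. Each is the stretch of 250 bases before a start site in RefSeq (GRCm38.p6), read 5′ to 3′ in the direction of the gene. Capitals mark matches, on either strand, to the E2F-type letters TTTCCCGC, TTTCGCGC, TTTGCCGC or TTTGGCGC, or to the CCAAT box letters CCAAT; some matches overlap. For Uhrf1 and Dnmt1, which have several start sites in the table, the one with an E2F-type match is shown.
Uhrf1, chr17:56304063-56304312, plus strand: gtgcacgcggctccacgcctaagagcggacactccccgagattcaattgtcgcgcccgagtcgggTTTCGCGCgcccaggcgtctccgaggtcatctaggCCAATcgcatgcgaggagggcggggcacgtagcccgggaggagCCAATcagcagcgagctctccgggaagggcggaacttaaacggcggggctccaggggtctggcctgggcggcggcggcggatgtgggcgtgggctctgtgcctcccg
Anp32e, chr3:95929007-95929256, plus strand: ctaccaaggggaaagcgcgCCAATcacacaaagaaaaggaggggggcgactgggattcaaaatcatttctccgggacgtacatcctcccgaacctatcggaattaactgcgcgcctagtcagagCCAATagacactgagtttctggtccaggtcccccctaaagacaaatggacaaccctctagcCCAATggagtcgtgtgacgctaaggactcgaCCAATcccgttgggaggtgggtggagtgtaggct
Dnmt1, chr9:20952624-20952873, minus strand: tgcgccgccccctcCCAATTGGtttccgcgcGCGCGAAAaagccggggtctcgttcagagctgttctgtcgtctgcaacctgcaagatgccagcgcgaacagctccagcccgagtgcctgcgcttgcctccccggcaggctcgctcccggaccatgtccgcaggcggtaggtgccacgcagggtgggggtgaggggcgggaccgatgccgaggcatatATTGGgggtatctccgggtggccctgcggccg
Ezh2, chr6:47595031-47595280, minus strand: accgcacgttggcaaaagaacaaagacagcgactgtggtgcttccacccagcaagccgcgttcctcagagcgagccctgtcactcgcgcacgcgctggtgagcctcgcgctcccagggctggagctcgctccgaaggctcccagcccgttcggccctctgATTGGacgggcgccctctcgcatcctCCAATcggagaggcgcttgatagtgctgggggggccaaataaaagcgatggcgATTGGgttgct

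E2F proteins are transcription factors of the G1-to-S transition, and the CCAAT box is bound by NF-Y. The searched window ran from 250 bases before to 50 after each start site. The Uhrf1 E2F-type match began 185 bases before the start site. Dnmt1 had an E2F-type match at -219 and another at 34 after the start, and Ezh2 had its match 4 bases after the start, which is outside the stretch printed. Anp32e had no E2F-type match in this window and had 4 CCAAT matches, at -231, -126, -65 and -34. RefSeq promoters were at hand for 37 of the 43 member genes, 48 start sites in all. An E2F-type match was found in 5 of these 48 (10.4%), those of Dnmt1, Ezh2, Smarcd1, Suz12 and Uhrf1, against 3.84% of 7011 promoters of genes tested on the arrays and 2.26% of all 32851 promoters in the table. A CCAAT match stood in 25 of the 48 (52.1%), against 36.7% and 37.4%. At least 3 CCAAT matches, a cut that was not planned, stood in 8 of the 48 (16.7%), against 4.84% and 3.37%. Start sites of the same gene, Dnmt1, were counted separately among these 8. The Sp1-type letters GGGCGG were found in 70.8% of member promoters, 60.2% of those of tested genes and 35.7% of all. The median GC content was 65.0%, 60.3% and 52.7% in the same order, and its part in these shares was not tested. Of the 5 genes with an E2F-type match only Uhrf1 passed the expression test, and Smarcd1, with a match at -131, was lower on every branching array (-0.17 ± 0.12, limma adjusted p = 0.603).

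None of the 5 tested HMG probe sets passed, and for all but Hmgb2 the 95% interval excluded a 2-fold change. Hmga2 (Entrez gene 15364), which encodes an AT-hook protein of embryonic and progenitor cells, gave 2977.1, 3256.6 and 3479.5 in branching and 3175.1, 2888.2 and 2703.4 in non-branching. These signals overlapped, and the log2 difference of 0.15 ± 0.11 (limma adjusted p = 0.588) had a 95% interval from -0.09 to 0.39. It was 0.09 without branching replicate 3 or non-branching replicate 3. Hmgb3, an HMG-box gene of progenitor cells, gave 6890.2, 7132.0 and 7168.5 in branching and 6615.7, 6308.8 and 6710.9 in non-branching. Although all 3 branching arrays were higher, the difference was only 0.11 ± 0.08 (adjusted p = 0.584), with an interval from -0.07 to 0.29. Hmgb2, an HMG-box gene of dividing cells, was read by a less specific probe set that scattered from 73.7 on non-branching replicate 1 to 544.3 on branching replicate 3. Its interval, -0.79 to 2.05, was too wide to place it. Hmgn1, which encodes a nucleosome-binding protein, averaged 44990 ± 1891 on branching and 42730 ± 4383 on non-branching arrays (SD, n = 3), a difference of 0.08 ± 0.09. Hmgn5 gave 639.1, 662.1 and 834.0 in branching and 662.9, 598.3 and 598.8 in non-branching, overlapping signals with a difference of 0.19 ± 0.17 (adjusted p = 0.679), which was 0.07 without branching replicate 3. Hmgb4 was at background on all 6 arrays (20.7 to 127.3) and was not tested. HMG genes have many processed pseudogenes, so their probe sets may also read related sequences.

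SWI/SNF is a complex built around the ATPases Smarca4 or Smarca2, with the core subunits Smarcb1, Smarcc1 and Smarce1 and a choice of Smarcd subunits. Of 10 tested probe sets of 7 SWI/SNF genes none passed, 4 had differences above 0 and 6 below, and the median of the 8 above background was -0.14. That median was -0.06 without branching replicate 1 or 3 and -0.20 without branching replicate 2. Smarcd2 (Entrez gene 83796) came nearest to the threshold. Its brightest probe set, named as less specific, gave 998.8, 1011.1 and 1017.2 in branching and 1412.5, 1447.0 and 1762.3 in non-branching. The branching signals lay close together and below all non-branching ones (-0.60 ± 0.13, limma adjusted p = 0.0544), and the adjusted p was 0.0384 with array weights, 0.0404 with the dimmer 50% left out and 0.0466 with a floor of 64, and just under 0.05 with quantile normalization. The other 2 tested Smarcd2 probe sets, also less specific, overlapped between the regions. One read 959.8, 819.5 and 582.2 in branching and 591.3, 1239.5 and 941.2 in non-branching (-0.20 ± 0.28), and the dimmer one 399.1, 363.1 and 422.4 against 350.5, 492.6 and 346.6 (0.01 ± 0.23). A further Smarcd2 probe set was at background.

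Smaller differences were measured for the remaining SWI/SNF subunits above background. Smarca4, the ATPase Brg1, averaged 4159 ± 102 on branching and 3620 ± 548 on non-branching arrays (SD, n = 3). Its difference of 0.21 ± 0.12 had an interval from -0.06 to 0.48. The regions only just failed to overlap, with a lowest branching signal of 4092.4 and a highest non-branching signal of 4092.0. Smarcb1, a core subunit also known as Snf5, gave 2070.9, 1942.8 and 1991.8 in branching and 3024.6, 2518.9 and 2063.7 in non-branching. Non-branching replicate 3 fell within the branching range there, and the difference of -0.32 ± 0.14 did not pass (limma adjusted p = 0.336). Smarcc1 (0.02 ± 0.14), Smarce1 (-0.11 ± 0.20) and Smarcd1 (-0.17 ± 0.12) had intervals that excluded a 2-fold change. Smarca2, the alternative ATPase Brm, had means at background in both regions, as did the second Smarca4 probe set, and no fold is given for either.

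The ISWI ATPase gene Smarca5 (Snf2h), which encodes the motor of several nucleosome-spacing complexes, gave 602.1, 511.5 and 478.6 in branching and 415.9, 368.8 and 343.7 in non-branching. Every branching signal was higher, by 0.49 ± 0.20 on the log2 scale, and the test was not passed (limma adjusted p = 0.292). Its dimmer probe set overlapped between the regions and differed by 0.27 ± 0.30. Smarcad1, a remodeller that acts at replicated heterochromatin, had a bright probe set that read 872.6, 603.9 and 809.5 in branching and 999.6, 649.8 and 661.5 in non-branching, a difference of -0.003 ± 0.22. Its dimmer, less specific probe set read 243.6, 310.1 and 198.5 against 56.9, 452.0 and 233.3 (0.44 ± 0.65), so the non-branching arrays alone spanned the whole range.

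The CHD remodellers are ATPases with chromodomains, and none of the 4 tested passed. Chd4, the motor of the NuRD deacetylase complex, was read by a less specific probe set at 17608.2, 13787.8 and 14556.4 in branching and 16315.5, 17593.8 and 16753.0 in non-branching, which overlapped (-0.15 ± 0.10, limma adjusted p = 0.567). The Chd4 difference was -0.25 without branching replicate 1 and -0.08 without branching replicate 2. Chd1, Chd7 and Chd8 differed by 0.04 ± 0.21, -0.07 ± 0.27 and -0.06 ± 0.11. For all 4 tested CHD probe sets the 95% interval excluded a 2-fold change. Chd1l, which the symbol rule includes although it encodes a remodeller without chromodomains, was at background, with 38.6 to 79.7 on the 6 arrays.

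Among the class I histone deacetylases, the catalytic subunits of nuclear corepressor complexes, none of 3 passed. Hdac1 was a little lower in branching (means 1292 ± 73.7 and 1431 ± 96.7, SD, n = 3; -0.15 ± 0.12) and Hdac2 a little higher (1448 ± 141 and 1273 ± 264; 0.20 ± 0.16), each within overlapping signals. Hdac3, the enzyme of the NCoR complex, gave 446.5, 375.8 and 635.9 in branching and 284.7, 270.7 and 418.4 in non-branching. Its difference of 0.58 ± 0.28 did not pass (limma adjusted p = 0.382), and its interval from -0.05 to 1.20 does not exclude a 2-fold higher signal. Without branching replicate 3 the Hdac3 difference was 0.36. Rbbp4 and Rbbp7, the histone-binding partners of Hdac1 and Hdac2 that also sit in Polycomb and chromatin assembly complexes, differed by 0.36 ± 0.19 (adjusted p = 0.449) and 0.20 ± 0.13. The Rbbp4 signals were 1485.5, 2090.7 and 2191.2 in branching and 1849.0, 1197.1 and 1466.2 in non-branching, with branching replicate 1 inside the non-branching range, and the Rbbp4 difference was 0.20 without non-branching replicate 2.

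None of the 3 deacetylases outside class I passed. Hdac5, a deacetylase that shuttles between nucleus and cytoplasm, gave 1652.6, 1504.7 and 1465.7 in branching and 1872.5, 1819.5 and 2106.7 in non-branching. Hdac6, the cytoplasmic deacetylase of tubulin, gave 1840.2, 1836.6 and 1721.4 against 2017.4, 2251.3 and 2284.0. Both were lower on all 3 branching arrays, by -0.33 ± 0.11 and -0.28 ± 0.11, and neither passed (limma adjusted p = 0.224 and 0.263). Hdac7 had means of 2713 ± 68.3 and 2632 ± 333 (SD, n = 3), a difference of 0.05 ± 0.12 with an interval from -0.21 to 0.31.

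Polycomb repressive complex 2 trimethylates histone H3 at lysine 27 through Ezh2 or Ezh1, with Eed and Suz12 as partners. None of its 6 tested probe sets passed. Ezh2 (Entrez gene 14056), the catalytic subunit of dividing cells, gave 2044.4, 1929.6 and 2035.3 in branching and 1788.7, 1511.8 and 1580.7 in non-branching. Every branching signal was higher, but by only 0.30 ± 0.11 (limma adjusted p = 0.245; interval 0.05 to 0.55). Ezh1, known as the form of resting cells, had a difference of the opposite sign, -0.34 ± 0.32, with overlapping signals of 155.7 to 206.7 in branching and 181.3 to 254.4 in non-branching. Eed differed by 0.30 ± 0.31. The brightest Suz12 probe set read 382.3, 351.1 and 364.5 in branching and 359.6, 345.7 and 354.2 in non-branching (0.05 ± 0.21), a narrow range with overlap. The second read 251.1, 214.9 and 256.4 against 239.6, 292.3 and 279.7 (-0.17 ± 0.26), also with overlap. The third, at background in both means, read 152.1, 80.7 and 43.5 against 52.5, 80.2 and 183.2 and gives no fold.

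The Cbx genes encode chromodomain readers of histone methylation. Cbx2 and Cbx6 belong to Polycomb complex 1. The Cbx2 probe set with the smaller p gave 934.7, 663.1 and 710.7 in branching and 513.7, 717.0 and 519.3 in non-branching (0.40 ± 0.21, limma adjusted p = 0.419; 0.25 without branching replicate 1), and the other ranged from 457.7 to 1436.2 among the branching arrays alone (0.24 ± 0.38). The Cbx6 probe sets differed in sign. The brighter, less specific one read 401.6, 526.6 and 612.8 in branching and 438.9, 426.4 and 554.6 in non-branching (0.11 ± 0.22). The dimmer one read 232.3, 286.2 and 327.2 against 648.8, 305.4 and 386.8 (-0.61 ± 0.31, adjusted p = 0.423), with non-branching replicate 1 far above the other 5 arrays. Cbx7 was at background, with 7.8 to 103.4.

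HP1 proteins bind methylated lysine 9 of histone H3 in heterochromatin. Cbx5 (HP1 alpha, Entrez gene 12419) had the larger differences of this class. One probe set gave 1280.8, 1321.0 and 1279.6 in branching and 1056.4, 867.3 and 942.6 in non-branching, with no overlap and a difference of 0.44 ± 0.13 that did not pass (limma adjusted p = 0.140; interval 0.15 to 0.73). The brighter one overlapped slightly and differed by 0.26 ± 0.16 (adjusted p = 0.499). Cbx1 (HP1 beta) differed by 0.15 ± 0.22, and its second, less specific probe set was too dim to be tested.

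Where a gene was read by several probe sets, these did not always point the same way. Of 9 genes with at least 2 tested probe sets above background, 4 (Anp32e, Cbx2, Cbx5 and Smarca5) had differences of 1 sign, all higher in branching, and 5 (Anp32a, Cbx6, Smarcad1, Smarcd2 and Suz12) had differences of opposite sign. For Uhrf1 a single probe set was at hand.

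**Figure D3:**
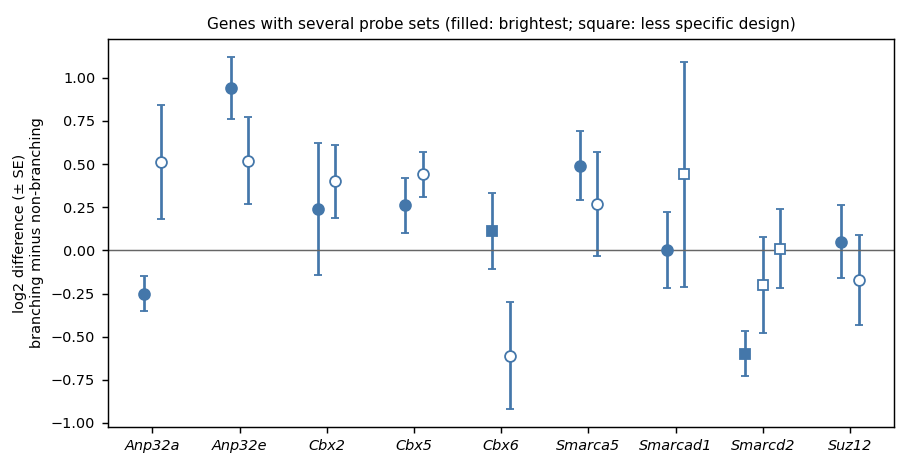
Log2 difference (± SE) of each tested probe set above background for the 9 genes with at least 2 of them. Filled symbols are the brightest probe set of a gene and squares are less specific designs; the probe sets of Anp32e, Cbx2, Cbx5 and Smarca5 lie above 0, and those of the other 5 genes fall on both sides of 0, with the brightest Smarcad1 probe set at -0.003.

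Other chromatin genes, from a list of 70 that the symbol rule leaves out, were looked at in the same fit. Of 48 tested, 1 rose (Chaf1b), none fell and 47 did not pass, with a median of 0.14. A similar share of all probe sets tested, 2.03%, passed in either direction. Chaf1b encodes a subunit of chromatin assembly factor 1, which places histones on newly made DNA together with Chaf1a and Rbbp4. It gave 1547.6, 1556.5 and 1613.8 in branching and 982.8, 777.7 and 806.9 in non-branching, a difference of 0.89 ± 0.14 (limma adjusted p = 0.0120) with no overlap. Its partner Chaf1a was named after its values were seen, as were the genes that follow. Chaf1a was also higher on all branching arrays, with means of 611.4 ± 78.0 and 255.7 ± 130 (SD, n = 3), and did not pass (limma adjusted p = 0.141). H2az1, the gene of the H2A.Z variant that Anp32e removes, differed by 0.58 ± 0.21 with overlapping signals (adjusted p = 0.228). Ctbp2 and Set came nearest to the threshold among those not called, and were higher on all branching arrays. Their differences were 0.82 ± 0.18 and 0.43 ± 0.10 (limma adjusted p = 0.0546 and 0.064). Kmt2a, a histone H3 lysine 4 methyltransferase, and Jarid2, a partner of Polycomb complex 2, were lower on all branching arrays. Neither passed (-0.63 ± 0.16, limma adjusted p = 0.0816, and -0.46 ± 0.12, adjusted p = 0.0923).

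Some genes of dividing cells also rose in branching. Of 28 cell cycle genes tested, 4 rose, none fell and 24 did not pass, 27 had differences above 0, and the median was 0.41. The sum of their signals was 55053 to 59342 on the branching arrays and 42256 to 44374 on the non-branching arrays. The largest rise was that of Mybl2, a transcription factor gene of the cell cycle, which read 670.8, 630.7 and 899.4 in branching and 166.7, 103.4 and 126.5 in non-branching (2.48 ± 0.28, limma adjusted p = 0.00271), with a non-branching mean below background. Of the other 3 that rose, Pcna, the sliding clamp of DNA polymerase and a partner of Dnmt1 at the fork, differed by 0.87 ± 0.16 (limma adjusted p = 0.0257), and Rrm2 and Tk1, which supply nucleotides, by 0.99 ± 0.13 (adjusted p = 0.00661) and 0.78 ± 0.13 (adjusted p = 0.0160). The mean log2 deviation of the cell cycle genes from their 6-array mean was 0.19 to 0.30 on the branching arrays and -0.30 to -0.20 on the non-branching arrays, while that of the 49 chromatin members was -0.02 to 0.15 and -0.08 to -0.05. The part of dividing cells in the Uhrf1 and Anp32e differences was not tested.

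**Figure D4:**
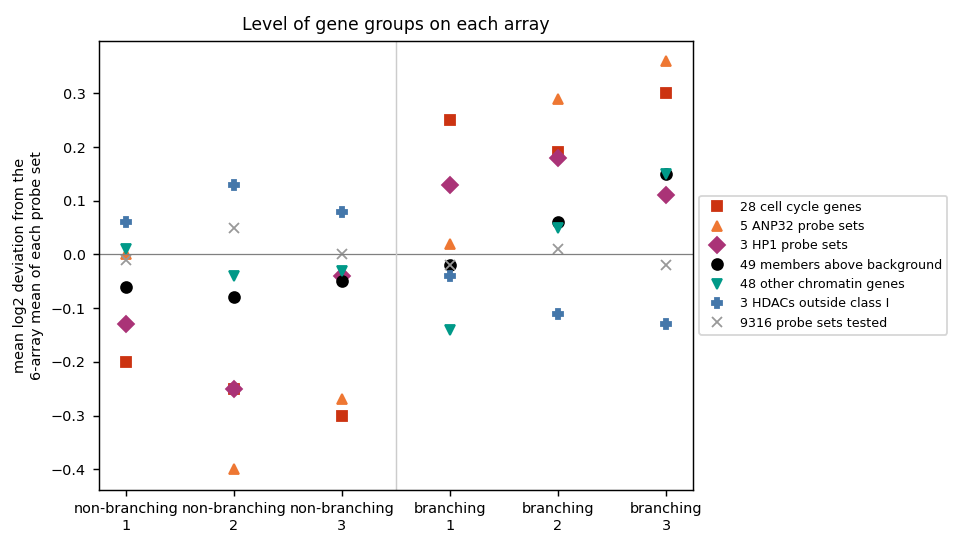
Mean log2 deviation from the 6-array mean, per array, for the chromatin members, 3 of their classes, other chromatin genes, cell cycle genes and all probe sets tested. Cell cycle genes (red squares) lie at 0.19 to 0.30 on branching and -0.30 to -0.20 on non-branching arrays, and the members as a whole (black circles) lie between -0.08 and 0.15. The mean of the 3 HDACs outside class I (blue) lies at -0.13 to -0.04 on the branching arrays. None of these 3 passed, and Hdac7 alone differed by 0.05. The SWI/SNF class, which is not plotted, also has means below 0 there (-0.12 to -0.05).

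Markers of other cell types also differed between the regions. Of 9 red blood cell genes tested 4 rose in branching (median 0.45), with a summed signal of 139253 to 154203 in branching and 90103 to 97447 in non-branching and 1 of 10 measured at background on all arrays. The 4 were globin genes (Hba-a1, Hba-x, Hbb-b2 and Hbb-y), while Hbb-bh1 and Alas2 overlapped. Slc4a1 was higher on all branching arrays (0.88 ± 0.19, limma adjusted p = 0.0526). Klf1 and Epor had differences below 0 with overlapping signals (-0.48 ± 0.62 and -0.90 ± 0.55). Of 9 smooth muscle genes 5 fell (median -0.72; summed signal 6033 to 6729 against 11416 to 13129; Smtn at background), of 7 cartilage genes 3 fell (median -0.78; 3454 to 3568 against 6128 to 6537; Acan, Hapln1 and Matn1 at background), and of 11 cardiac and skeletal muscle genes 3 fell (median -0.53; 3999 to 4569 against 6603 to 7340; Myh6, Myl2 and Myl3 at background). Of 10 endothelial genes 1 fell (median -0.31; 4217 to 5034 against 5368 to 5768; none at background), and of 7 neuronal and neural crest genes 1 fell (median 0.16; 4295 to 4737 against 4787 to 5373; 7 of 13 measured at background). None of 11 epithelial genes (median 0.10; 6182 to 6893 against 5335 to 5937) and none of 7 leukocyte genes (median 0.10; 1628 to 2072 against 1247 to 1855; Ptprc, Itgam, Lyz2 and Adgre1 at background) passed. The epithelial median also hides differences of both signs. Sftpc and Cldn6 were higher on all branching arrays, by 1.99 ± 0.49 and 0.62 ± 0.14 (limma adjusted p = 0.0807 and 0.0647). Sox2 and Foxa2 were lower on all of them, by -1.28 ± 0.33 and -0.62 ± 0.15 (adjusted p = 0.0995 and 0.0751). The part of this cell makeup in the differences of the chromatin genes was not tested.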

How the data were processed

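Total RNA of 6 samples was measured on 1 array each. The deposited values are intensities per probe set on a linear scale, with array medians close together; how the authors made and scaled them and a genome build are not given in the sources used here. The members and lists were chosen with earlier results of these data known. Symbols came from the platform annotation, and all 59 members matched a RefSeq gene identifier with the same symbol. Before log2, lower values were raised to a floor of 16. After the dimmest 25% of probe sets by mean log2 signal had been dropped, 9316 went into a limma fit (version 3.58.1, R 4.3.3; 2 groups, variance trend, two-sided, Benjamini-Hochberg over all tested). The threshold for a call was an adjusted p under 0.05. Errors of differences are moderated standard errors. Background (147) is the 95th percentile of 114 values of 19 bacterial and yeast control probe sets; where both regional means were at or below it, no fold is given. Full array values are given for called members, the smallest p of a class without calls, members without overlap and a difference of at least 0.5, and genes whose probe sets disagreed in sign. Same-numbered arrays did not deviate together (correlations of -0.015 to 0.013), so the numbers were not used as pairs. Alternatives were the replicate block, quantile and median scaling, other filters and floors, other variance models, array weights, single-array omissions, an adjusted p under 0.10 and other choices of probe sets.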

Additional observations from a re-analysis of the deposited data

How the results depend on the processing

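The count of members higher in branching was 2, and that of members lower was 0. The higher count was 0 without the variance trend, without the dimness filter and with unmoderated variances, 1 with a replicate block, in which Anp32e had a limma adjusted p of 0.0704, and from 0 to 2 when 1 array was left out. It was 3, with Anp32b added, with array weights, with the dimmer 50% left out and at an adjusted p under 0.10. The lower count was 1, Smarcd2, with array weights, with the dimmer 50% left out, with a floor of 64, with quantile normalization and at an adjusted p under 0.10. Over all probe sets, 84 were higher and 105 lower; the counts were 5 and 17 without the variance trend, 38 and 62 without the filter, 2 and 9 with unmoderated variances, 164 and 195 at an adjusted p under 0.10, and 44 and 70 with the replicate block, and they ran from 16 to 69 higher and 38 to 98 lower over the omissions. The member median of 0.11 ran from 0.07 to 0.19 over the omissions. Its alternatives, apart from 1 probe set per gene, and the restriction to specific probe sets were chosen after seeing the data. The medians of the HMGB, CHD and Polycomb CBX classes changed sign under at least 1 alternative, so no direction is given for these classes; none of the single-member differences recomputed under the alternatives did. With 3 arrays per region, the median standard error of the members was 0.19, so small differences could not be placed, and dim probe sets had the widest intervals.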
